A study of Mus musculus with 6 samples.

Results

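The interferon regulatory factor (IRF) genes were examined in iGMPs, granulocyte-macrophage progenitors from C57Bl/6 Lys-GFP mouse marrow that HOXA9 immortalizes. The 8 genes Irf1, Irf2, Irf3, Irf4, Irf5, Irf7, Irf8 and Irf9 were taken by symbol from the 34199 gene symbols counted, and all 8 passed the filter on low counts that left 12460 genes. All cells carried ER-HOXA9, a fusion of HOXA9 to the ligand-binding part of the estrogen receptor that holds them as self-renewing progenitors while estradiol is present, and all were grown with stem cell factor. RNA-seq libraries were made at 24 h from control cells treated with IPTG, from CAF-1 OFF cells in which 500 µM IPTG induced a short hairpin RNA against Chaf1b, and from HOXA9 OFF cells from which estradiol had been washed out. Control and CAF-1 OFF cells stayed in 150 ng/ml estradiol. Each group had 2 libraries. Chaf1b encodes a subunit of CAF-1, the chaperone that deposits histones on newly copied DNA. The inducible cells were clonal lines, and the labels did not say which clone or vector the control and HOXA9 OFF libraries came from, whether HOXA9 OFF cells received IPTG, or whether libraries of a group were separate cultures. For a later time the study mentions independent sub-clones, without linking them to these libraries. The p-values therefore measure the spread between these libraries, which may be technical.

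The IRF family shares a DNA-binding domain that reads GAAA repeats, the core of the interferon-stimulated response element. IRF3 and IRF7 switch on type I interferon genes once kinases below the nucleic acid sensors phosphorylate them, IRF5 acts below Toll-like receptors on inflammatory cytokine genes, and IRF9 is the DNA-binding part of the complex that acts at the response element after interferon binds its receptor. IRF1 is an activator induced by interferon gamma, and IRF2 competes for many of the same sites. IRF4 and IRF8 bind DNA weakly alone and pair with ETS factors such as PU.1 at composite elements. In the bone marrow, IRF8 is known for steering granulocyte-macrophage progenitors towards monocytes and dendritic cells and away from neutrophils, and IRF4 for its roles in B cells, dendritic cells and alternatively activated macrophages.

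The genomic sequence upstream of the start site was read for the genes on which the comparisons turn. The RefSeq promoter table (GRCm38.p6) matched all 8 genes with 11 windows, since some genes have several starts, and the 250 bases before each start were searched on both strands for 3 motifs. The interferon-stimulated response element core (GAAANNGAA) was present in 1 of the 11 windows and in 7.13% of all 32851 windows of that length. The interferon-gamma activated site (TTCNNNGAA, which reads the same on both strands) was present in 3 of 11 and in 7.02% of all windows, and the core of an ETS and IRF composite element (GGAANNGAA) in 1 of 11 and in 6.99%. A match is only a description of these letters. Irf8 and Irf4 are printed because they changed most, Irf2 because it is the sole window with the response element core, and the stretch of Irf1 because it holds the interferon-gamma activated site. All are on the plus strand, 5′ to 3′, with matches in capitals. They lie at chr8:120736108-120736357 (Irf8), chr13:30748983-30749232 (Irf4), chr8:46739495-46739744 (Irf2) and chr11:53769914-53769942 (Irf1).
Irf8: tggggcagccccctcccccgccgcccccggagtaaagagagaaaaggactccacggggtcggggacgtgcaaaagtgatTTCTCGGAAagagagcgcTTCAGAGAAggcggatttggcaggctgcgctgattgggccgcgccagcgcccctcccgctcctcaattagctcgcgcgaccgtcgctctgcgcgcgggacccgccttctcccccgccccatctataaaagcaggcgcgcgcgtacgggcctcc
Irf4: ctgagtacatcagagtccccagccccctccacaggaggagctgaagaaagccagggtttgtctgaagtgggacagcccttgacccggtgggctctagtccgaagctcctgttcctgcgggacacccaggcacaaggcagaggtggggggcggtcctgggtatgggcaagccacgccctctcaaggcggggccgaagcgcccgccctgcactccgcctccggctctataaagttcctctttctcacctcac
Irf2: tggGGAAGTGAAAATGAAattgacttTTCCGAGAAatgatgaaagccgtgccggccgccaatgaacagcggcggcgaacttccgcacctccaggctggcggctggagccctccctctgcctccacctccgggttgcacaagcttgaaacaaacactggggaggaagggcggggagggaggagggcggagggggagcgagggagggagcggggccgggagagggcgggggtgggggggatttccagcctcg
Irf1: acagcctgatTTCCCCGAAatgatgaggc
Irf8 held 2 activated sites, 171 to 163 and 153 to 145 bases before the start. The Irf4 window held no match to any of the 3 motifs. In Irf2 a composite core (247 to 239 bases before the start) overlapped the response element core (241 to 233), and an activated site followed at 224 to 216. The activated site of Irf1 lay 90 to 82 bases before the start.

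Between 16773560 and 25170898 reads per library were assigned to genes, so that 3 counts corresponded to 0.118 to 0.182 CPM (counts scaled to a common library size, with TMM factors of 0.954 to 1.03). Chaf1b, the targeted gene, was at 17.8 and 12.1 CPM in CAF-1 OFF against 90.0 and 105 CPM in control (log2 fold change -2.71 ± 0.20, SE, edgeR FDR 0.0198) and at 64.6 and 61.4 CPM in HOXA9 OFF, where the log2 fold change was -0.63 ± 0.18 (edgeR FDR 0.0396). The progenitor identity of the line was checked on 10 markers of granulocyte-macrophage progenitors, which were all detected in control. In HOXA9 OFF 6 of the 10 were called lower (Flt3 with a log2 fold change of -6.05, Cd34 with -1.86 and Kit with -1.16 among them) and 1 higher (Fcgr3). Over all 12460 genes, 1118 were called lower and 1622 higher in HOXA9 OFF. In CAF-1 OFF 0 of the 10 were called, but only 4 of all genes were, so this count says little about the markers. Libraries of 1 group differed by more than sampling noise, with a chi-square statistic per degree of freedom of at least 20.5.

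The largest changes in the family were those of Irf4 and Irf8 after HOXA9 inactivation, whereas 24 h of CAF-1 suppression gave no called change in any of the 8 genes. Of the 8 genes, 4 (Irf4, Irf8, Irf5 and Irf7) were called higher in HOXA9 OFF than in control, and Irf1, Irf2, Irf3 and Irf9 were not called. A call required a fold change of at least 1.5 and an FDR under 0.05 in the edgeR quasi-likelihood test over all 12460 genes. By this rule 22% of all genes were called in HOXA9 OFF against control, 13% of all genes being called as increased. The libraries of the groups did not overlap for 7 of the 8 genes (71% of all genes), Irf3 being the exception. All 8 genes reach the filter in the control and CAF-1 OFF libraries alone. The median log2 fold change of the 8 genes was 1.01, beside -0.00349 over all genes tested.

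**Figure D1:**
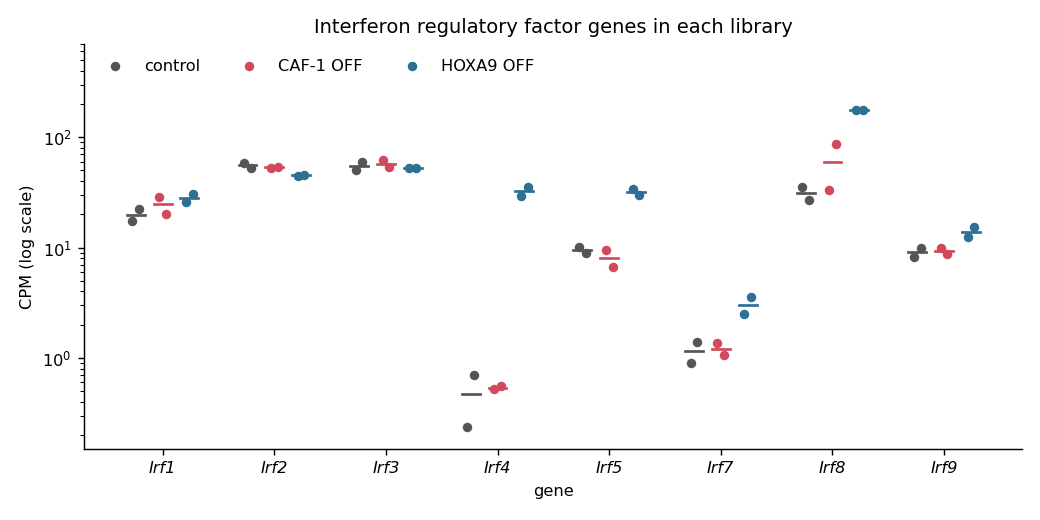
Level of each IRF gene in each of the 6 libraries, as CPM on a log axis. Each point is 1 library and each bar the mean of 2. Irf4 lies between 0.236 and 0.697 CPM in control and CAF-1 OFF and at 29.2 and 35.5 CPM in HOXA9 OFF, and the Irf8 libraries of CAF-1 OFF lie apart, at 32.9 and 86.0 CPM.

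Among the lineage-restricted pair, Irf4 (ENSMUSG00000021356.3, mm9 chromosome 13, 30841095 to 30858796, plus strand, protein coding) had 6 and 12 counts in control, 10 and 11 in CAF-1 OFF, and 605 and 586 in HOXA9 OFF. These counts corresponded to 0.236 and 0.697 CPM, 0.520 and 0.557 CPM, and 29.2 and 35.5 CPM. Irf4 was therefore close to the detection limit while HOXA9 was active and was clearly expressed in both libraries after its inactivation. The increase was 73.4-fold (95% interval 37.7 to 143), a log2 fold change of 6.20 ± 0.40 (SE, edgeR FDR 0.000375), rank 41 of 12460 genes from the top. Because its control counts are low, the size depends on them: the log2 fold change was 5.52 without control replicate 1 and 7.06 without control replicate 2, called in both cases (edgeR FDR 0.00125 and 0.000833). In CAF-1 OFF the log2 fold change from control was 0.31 ± 0.50 (edgeR FDR 0.875), with a 95% interval of -0.89 to 1.51 that stays far below the size reached in HOXA9 OFF.

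Irf8 (ENSMUSG00000041515.3, mm9 chromosome 8, 123260258 to 123280594, plus strand, protein coding) was already expressed in control progenitors, at 35.6 and 26.9 CPM (907 and 463 counts). It was at 178 and 175 CPM in HOXA9 OFF (3683 and 2886 counts). HOXA9 OFF was thus 5.63-fold higher (95% interval 2.85 to 11.1), with a log2 fold change of 2.49 ± 0.41 (SE, edgeR FDR 0.00605), and the call was kept without each of the 6 libraries in turn. The CAF-1 OFF libraries had 32.9 and 86.0 CPM (634 and 1699 counts). The first of them lay within the control range and the second above it, so that the groups overlapped. The log2 fold change of CAF-1 OFF from control was 0.93 ± 0.40 (SE, 95% interval -0.03 to 1.88, edgeR FDR 0.474), and it was set by 1 library. Without CAF-1 OFF replicate 2 it was 0.09 (edgeR FDR 0.868), and without CAF-1 OFF replicate 1 it was 1.45 (edgeR FDR 0.126). With no filter on low counts, Irf8 was called in this comparison (log2 fold change 0.91, edgeR FDR 0.00345).

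Counts of other genes from the same CAF-1 OFF libraries stand beside this split. The 8 monocyte and macrophage markers summed to 41.4 CPM in replicate 1 and 47.8 CPM in replicate 2, against 57.4 and 31.2 CPM in control. Emr1 took the largest part of that sum, and without it the markers summed to 24.2 and 22.6 CPM against 16.7 and 11.6 CPM. Of 5 tested, 0 were called (0.0321% of all genes were) and 4 were positive, and they did not split alike. Csf1r was at 4.78 and 7.14 CPM, Emr1 at 17.1 and 25.2 CPM and Ms4a7 at 0.416 and 0.557 CPM, all higher in replicate 2. Cx3cr1 was at 6.70 and 3.09 CPM and Cd14 at 12.2 and 11.6 CPM, both lower in replicate 2. The 9 mature neutrophil markers summed to 415 and 708 CPM against 121 and 81.6 CPM in control. Most of this was Mmp8, the neutrophil collagenase gene, at 332 and 630 CPM, and without it the sums were 83.0 and 77.4 CPM against 50.8 and 41.2 CPM. The 5 mast cell and basophil markers summed to 691 and 305 CPM against 288 and 243 CPM. The 8 erythroid and megakaryocyte markers summed to 84.8 and 40.8 CPM against 30.7 and 33.1 CPM, with 0 of 6 tested called and 6 positive. The part of these cells in the Irf8 values was not tested. In bulk RNA, fewer cells of a type and less RNA per cell cannot be told apart.

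Of the signal-activated members, Irf5 (ENSMUSG00000029771.5, mm9 chromosome 6, 29476625 to 29491869, plus strand) was at 10.2 and 8.94 CPM in control, 9.40 and 6.68 CPM in CAF-1 OFF, and 33.6 and 30.1 CPM in HOXA9 OFF. Irf5 rose 3.32-fold in HOXA9 OFF (95% interval 2.37 to 4.65), a log2 fold change of 1.73 ± 0.20 (SE, edgeR FDR 0.00199). In CAF-1 OFF its log2 fold change was -0.25 ± 0.21 (edgeR FDR 0.72), with overlapping libraries. The annotation lets 411 exonic bases of Irf5 overlap Tnpo3 on the other strand. Tnpo3 had 2653 to 4818 counts per library and Irf5 132 to 697, and whether reads were counted by strand was not given in the sources used here.

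Irf7 (ENSMUSG00000025498.7, mm9 chromosome 7, 148448605 to 148452380, minus strand), which is itself induced by interferon in most cells, was the least firm of the called genes. It had 23 and 24 counts in control, 26 and 21 in CAF-1 OFF, and 52 and 59 in HOXA9 OFF, that is 0.903 and 1.39 CPM, 1.35 and 1.06 CPM, and 2.51 and 3.58 CPM. The HOXA9 OFF libraries lay above the other 4. The log2 fold change in HOXA9 OFF was 1.41 ± 0.40 (SE, edgeR FDR 0.0385), 2.66-fold with a 95% interval of 1.37 to 5.17. The call was lost without control replicate 1 (edgeR FDR 0.188), control replicate 2 (0.0846), HOXA9 OFF replicate 1 (0.0833) or HOXA9 OFF replicate 2 (0.195). Irf7 shares 45 exonic bases with Phrf1 on the other strand.

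Irf3 (ENSMUSG00000003184.8, mm9 chromosome 7, 52253018 to 52258218, plus strand), the constitutive partner of Irf7 in turning on type I interferon genes, had 50.8 and 59.2 CPM in control. It had 62.0 and 53.3 CPM in CAF-1 OFF and 52.2 and 52.9 CPM in HOXA9 OFF. All 6 libraries fell in a narrow band, and neither comparison with control was called. The log2 fold change was 0.07 ± 0.13 in CAF-1 OFF (95% interval -0.24 to 0.38) and -0.06 ± 0.13 in HOXA9 OFF (95% interval -0.37 to 0.24). Irf3 shares 88 exonic bases with Bcl2l12 on the other strand.

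Irf9 (ENSMUSG00000002325.8, mm9 chromosome 14, 56222408 to 56228867, plus strand), a member of the interferon response itself, was at 8.29 and 9.93 CPM in control, 9.92 and 8.66 CPM in CAF-1 OFF, and 12.4 and 15.2 CPM in HOXA9 OFF. Its HOXA9 OFF libraries lay above all others, with a log2 fold change of 0.60 ± 0.20 (SE, 95% interval 0.12 to 1.08), but the edgeR FDR was 0.0659 and the gene was not called. The annotation gives 123 exonic bases of Irf9 also to Rnf31 on the same strand, and Rnf31 had 485 to 798 counts per library against 171 to 257 for Irf9.

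Irf1 (ENSMUSG00000018899.9, mm9 chromosome 11, 53583516 to 53591876, plus strand) was at 17.5 and 22.2 CPM in control, 29.0 and 20.2 CPM in CAF-1 OFF, and 26.1 and 30.7 CPM in HOXA9 OFF. Its antagonist Irf2 (ENSMUSG00000031627.7, mm9 chromosome 8, 47825099 to 47932812, plus strand) was at 58.7 and 52.5 CPM, 53.1 and 54.0 CPM, and 44.8 and 45.9 CPM in the same order. In HOXA9 OFF the libraries of Irf1 lay above both controls and those of Irf2 below both, but neither gene was called. The log2 fold changes were 0.52 ± 0.22 for Irf1 (edgeR FDR 0.121) and -0.30 ± 0.11 for Irf2 (edgeR FDR 0.0848). The number of Irf1 counts per Irf2 count, a value that no scaling of the libraries can move, was 0.298 and 0.423 in control, 0.546 and 0.373 in CAF-1 OFF, and 0.581 and 0.670 in HOXA9 OFF. Both HOXA9 OFF ratios exceeded the other 4.

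**Figure D2:**
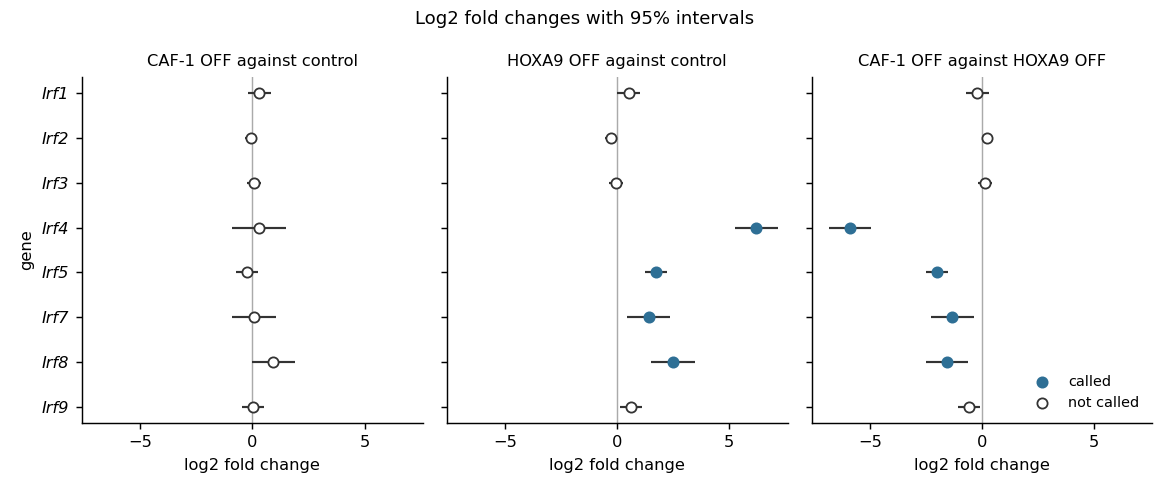
Log2 fold changes of the 8 genes in the 3 comparisons, with 95% intervals from the edgeR quasi-likelihood fit to all 6 libraries. Filled points are called genes and open points genes that were not called. In CAF-1 OFF against control all points are open and Irf8 lies farthest from 0, at 0.93, whereas Irf4, Irf5, Irf7 and Irf8 are filled in both comparisons with HOXA9 OFF.

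In CAF-1 OFF against control, 0 of the 8 genes were called by edgeR, and 4 of the 12460 genes (0.0321%). At an unadjusted p under 0.05 there were 0 of the 8 and 1330 of all genes. DESeq2 and the edgeR exact test called 192 and 243 genes and none of the 8. The libraries of CAF-1 OFF and control overlapped for all 8 genes, whereas they did not overlap for 40.1% of all genes. The median log2 fold change was 0.08, beside -0.00436 over all genes. The intervals bound what could have been missed: apart from Irf4, Irf7 and Irf8, no upper 95% bound exceeded a log2 fold change of 0.83, that of Irf1.

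The direct comparison of CAF-1 OFF with HOXA9 OFF asked where the 2 perturbations part. The genes Irf4, Irf5, Irf8 and Irf7 were called lower in CAF-1 OFF and 0 were called higher. Over all genes, 22.1% were called in this comparison and 12.6% as lower in CAF-1 OFF. The log2 fold changes were -5.89 ± 0.40 for Irf4 (edgeR FDR 0.000459), -1.99 ± 0.21 for Irf5 (edgeR FDR 0.00147), -1.57 ± 0.40 for Irf8 (edgeR FDR 0.0266) and -1.33 ± 0.40 for Irf7 (edgeR FDR 0.0464). Both comparisons with HOXA9 OFF use the same HOXA9 OFF libraries. Irf8 reached 86.0 CPM in the higher CAF-1 OFF library, still below the 175 CPM of the lower HOXA9 OFF library. Its call was lost without HOXA9 OFF replicate 1 (edgeR FDR 0.0806) or replicate 2 (0.0708), and its log2 fold change was -1.03 without CAF-1 OFF replicate 1 and -2.40 without CAF-1 OFF replicate 2. The Irf7 call was lost without any of the 6 libraries, at edgeR FDR values from 0.0609 (without control replicate 1) to 0.227 (without HOXA9 OFF replicate 2), and with the replicate number as a block (0.06), the DESeq2 Wald test (0.0587), library size alone as scaling (0.0561) or a fit to the 4 libraries compared (0.0535). Irf9 (-0.57 ± 0.20, edgeR FDR 0.0755), Irf1 (-0.21 ± 0.22), Irf2 (0.24 ± 0.11) and Irf3 (0.13 ± 0.13) were not called. For 7 of the 8 genes, all but Irf1, the libraries did not overlap (66.7% of all genes).

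To compare levels between genes, CPM was divided by the length of the merged exons in kb. In control the order was Irf2 (22.4 ± 1.76 CPM per kb, SD, n = 2), Irf3 (17.3 ± 1.88), Irf1 (5.0 ± 0.838), Irf8 (4.43 ± 0.877), Irf5 (3.30 ± 0.310), Irf9 (1.69 ± 0.215), Irf7 (0.380 ± 0.115) and Irf4 (0.0989 ± 0.0691). The libraries of Irf1 and Irf8 overlapped and those of other neighbours in the order did not. In CAF-1 OFF the order differed only in that Irf8 (8.43 ± 5.32 CPM per kb) stood before Irf1 (6.18 ± 1.57), again with overlapping libraries. In HOXA9 OFF, Irf8 came first at 25.0 ± 0.273 CPM per kb. It was followed by Irf2 (18.3 ± 0.305), Irf3 (16.5 ± 0.160), Irf5 (11.0 ± 0.852), Irf1 (7.14 ± 0.833), Irf4 (6.86 ± 0.950), Irf9 (2.56 ± 0.370) and Irf7 (1.01 ± 0.250). Here the libraries of Irf1 and Irf4 overlapped, and Irf4 had moved from the last place to above Irf9 and Irf7.

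The summed level of the 8 genes was 54.4 and 54.7 CPM per kb in control, 58.4 and 60.1 in CAF-1 OFF, and 87.1 and 89.5 in HOXA9 OFF. Without Irf8 it was 49.4 and 50.9, 53.8 and 47.9, and 61.9 and 64.7. Much of the larger sum in HOXA9 OFF was thus Irf8. The share of Irf8 in the sum was 6.97% to 9.28% in control, 7.99% and 20.3% in CAF-1 OFF, and 27.7% to 28.9% in HOXA9 OFF. These shares depend on the length used, because the merged exons of Irf8 (7.055 kb) are longer than its longest coding transcript. With the longest coding transcripts, Irf8 took 16.2% and 12.1% of the sum in control, 13.6% and 32.1% of it in CAF-1 OFF, and 43.1% and 41.5% of it in HOXA9 OFF, so that the first CAF-1 OFF library again lay within the control range. Irf3 came before Irf2 in all 3 groups, and Irf8 stood just after both in control and first in HOXA9 OFF.

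**Figure D3:**
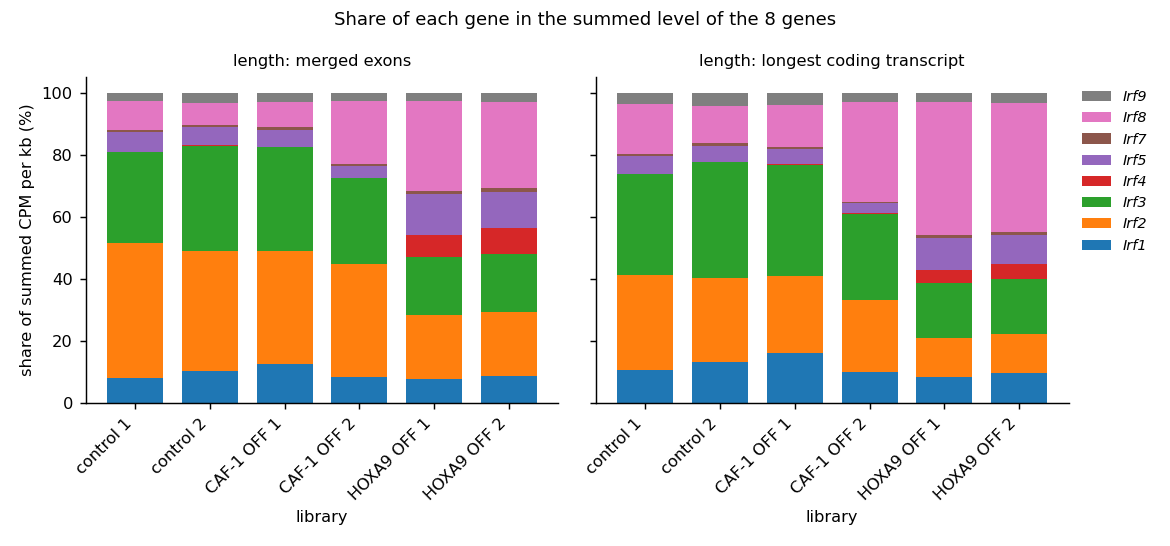
Share of each gene in the summed CPM per kb of the 8 genes, in percent, for each of the 6 libraries, with the merged exons (left) or the longest coding transcript (right) as gene length. With merged exons, Irf8 takes 6.97% to 9.28% in control and 27.7% to 28.9% in HOXA9 OFF, and the CAF-1 OFF libraries differ, at 7.99% and 20.3%.

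Within-library ratios gave the same picture without any scaling. There were 0.607 and 0.512 Irf8 counts per Irf2 count in control, 0.620 and 1.59 in CAF-1 OFF, and 3.96 and 3.81 in HOXA9 OFF. For each Irf8 count there were 0.00662 and 0.0259 Irf4 counts in control, 0.0158 and 0.00647 in CAF-1 OFF, and 0.164 and 0.203 in HOXA9 OFF. Both HOXA9 OFF ratios of Irf4 to Irf8 exceeded the other 4. Irf5 counts per Irf3 count were 0.201 and 0.151 in control, 0.152 and 0.125 in CAF-1 OFF, and 0.644 and 0.569 in HOXA9 OFF.

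Profiles over the 6 libraries were compared by the root mean square distance of log2 CPM values, each centred on its own mean, over the 9614 genes whose mean CPM was 5 or more. Irf8, the IRF gene with the highest mean CPM, was nearest to Tmc7 (distance 0.0647), followed by Nlrp1a (0.223), Mpeg1 (0.223), Mef2c (0.236) and Padi4 (0.242). Tmc7 had 2.12 and 1.57 CPM in control, 2.13 and 5.62 CPM in CAF-1 OFF, and 12.4 and 11.6 CPM in HOXA9 OFF. Because the nearest genes were chosen over these same 6 libraries, a split of the CAF-1 OFF libraries like that of Irf8 follows from the choice. Mpeg1, which encodes a pore-forming protein of macrophages, had 130 and 251 CPM in CAF-1 OFF, against 151 and 93.9 CPM in control. Irf4, the IRF gene with the largest change in HOXA9 OFF, was nearest to Ctss (0.214), which encodes the lysosomal protease cathepsin S, then Dennd2a (0.330), the macrophage colony-stimulating factor receptor gene Csf1r (0.387), Slfn2 (0.519) and Lyz1 (0.527). Csf1r had 4.05 and 4.24 CPM in control, 4.78 and 7.14 CPM in CAF-1 OFF, and 215 and 292 CPM in HOXA9 OFF. These likenesses describe 6 libraries in 3 groups, and any gene that was high in HOXA9 OFF alone resembles Irf4 to some extent.

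**Figure D4:**
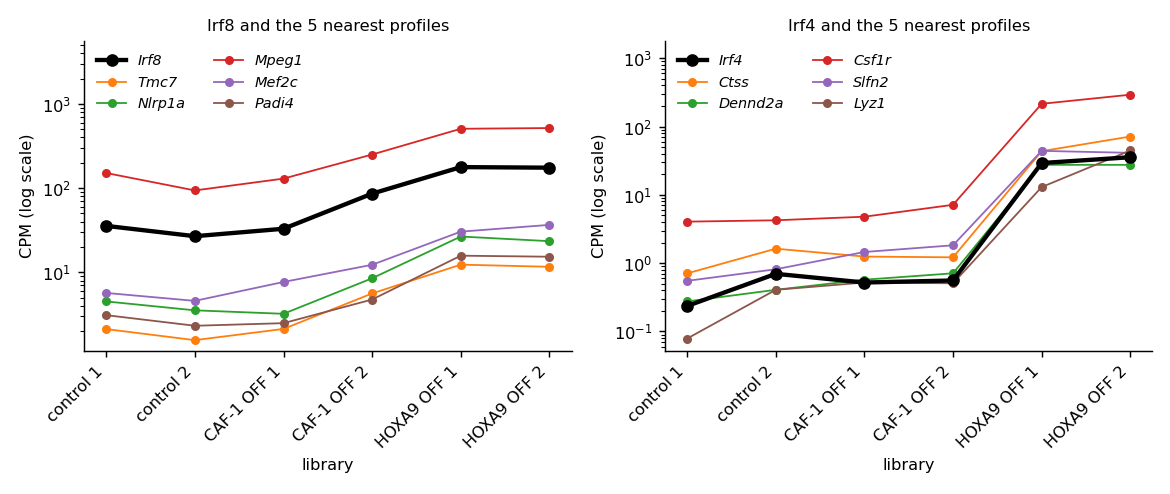
CPM on a log axis in the 6 libraries for Irf8 (left) and Irf4 (right), each in black, with the 5 genes of most similar centred log2 profile. Lines only join the points of a gene, and the similar genes were chosen over these same 6 libraries. Irf8 and Tmc7 both lie higher in CAF-1 OFF replicate 2 than in replicate 1 (86.0 against 32.9 CPM and 5.62 against 2.13 CPM), whereas Irf4 and its neighbours separate HOXA9 OFF from the other 4 libraries.

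Markers of other cell types moved with HOXA9 inactivation. Over the 12124 genes that reach the filter without HOXA9 OFF, 12.3% were called higher in HOXA9 OFF than in control and 9.22% lower. The 8 monocyte and macrophage markers summed to 454 and 530 CPM in HOXA9 OFF against 31.2 to 57.4 CPM in the other 4 libraries, and 4 of 4 tested were called higher, Csf1r (log2 fold change 5.94) among them, leaving out 1 marker that reached the filter only through HOXA9 OFF. The 9 neutrophil markers summed to 749 and 445 CPM against 121 and 81.6 CPM in control, with 8 of 9 called higher, and the 4 eosinophil markers to 5268 and 3788 CPM against 974 and 617 CPM, with 3 of 3 called higher. These are cell types to which the progenitors can give rise, and monocytes and macrophages express Irf8. The 8 classical dendritic cell markers summed to 3.47 and 7.34 CPM in HOXA9 OFF against 2.87 and 1.80 CPM in control, with 0 of 3 called, 1 of which reached the filter only through HOXA9 OFF. The 6 plasmacytoid dendritic cell markers summed to 20.3 and 46.8 CPM against 65.8 and 120 CPM, and 1 of 2 tested, Tcf4, was called lower (log2 fold change -1.01). Siglech, a defining marker of plasmacytoid cells, had 0 counts in control and CAF-1 OFF and 2 and 49 counts in HOXA9 OFF. The 6 B cell markers summed to 54.1 and 63.4 CPM against 130 and 151 CPM, with Ebf1 called lower (log2 fold change -5.12), whereas Cd79b (0.34) and Cd79a (0.33) were not called. The B cell genes Ms4a1 and Pax5 had 0 to 2 counts per library. The 6 T cell markers summed to 1.01 and 1.15 CPM against 3.34 and 6.56 CPM, with 2 of 2 tested called lower. The 8 erythroid and megakaryocyte markers summed to 82.9 and 88.0 CPM against 30.7 and 33.1 CPM, with Gata1 and Itga2b called higher, and the 5 mast cell and basophil markers to 326 and 391 CPM against 288 and 243 CPM, with 0 of 4 called. The part of any of these cells in the changes of the IRF genes was not tested.

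Some partners with which IRF proteins bind DNA were also higher after HOXA9 inactivation. Of 8 listed partner genes 6 passed the filter, and in HOXA9 OFF 3 were called higher and 0 lower (median log2 fold change 0.63), where 13% of all genes were called higher. Sfpi1, which encodes PU.1, the ETS partner of IRF4 and IRF8, was at 187 and 155 CPM in control, 220 and 185 CPM in CAF-1 OFF, and 560 and 440 CPM in HOXA9 OFF. It rose by 1.55 ± 0.17 on the log2 scale (edgeR FDR 0.00162). Stat2, a partner of IRF9, was also called. Of 8 cofactors and brakes, 1 was called higher and 0 lower, a share near the 13% of all genes. It was Irf2bp2, which encodes a binding partner of IRF2 (means of 200 CPM in control and 373 CPM after HOXA9 inactivation). Its log2 fold change was 0.90 ± 0.13 (edgeR FDR 0.00404). The median of these 8 was -0.02.

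Upstream of the IRF proteins, 6 of 19 tested sensors, adaptors and kinases were called higher in HOXA9 OFF and 0 lower, with a median log2 fold change of 0.33 (13% of all genes were called higher). The largest values were those of Tlr9 and Tlr7, whereas Tlr4 had a log2 fold change of 0.20 (edgeR FDR 0.587). Tlr9, the receptor for unmethylated CpG DNA, had 24 and 4 counts in control and 186 and 189 in HOXA9 OFF, and rose by 4.03 ± 0.58 on the log2 scale (edgeR FDR 0.00376). Tlr7, the receptor for single-stranded RNA, had 4 and 0 counts in control, 3 and 0 in CAF-1 OFF, and 82 and 129 in HOXA9 OFF (edgeR FDR 0.00566). Both receptors signal through MyD88 to IRF5 and IRF7. Tlr7 and Tlr9 reached the filter on low counts only through the HOXA9 OFF libraries, so that they had to come out higher, and without them 4 of 17 genes were called higher (median 0.30). The remaining 4 were Ikbke, Ticam1, Irak4 and Myd88.

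Interferon transcripts themselves were hardly detected. Of 20 listed ligand genes 18 were in the count files, 0 passed the filter, and they summed to 0 to 2 counts in each library. Interferon transcripts were thus at or under 3 counts in all 3 groups, which limits the reads assigned to these genes and not the protein. The tally lines left out of the counts were 50.2% to 53.9% of all entries. Whether interferon reads were among them was not tested. Of 8 receptor and Janus kinase genes, 3 were called higher and 1 lower in HOXA9 OFF (median log2 fold change 0.49). Over all 12460 genes, 13% were called higher and 1118 genes lower. Jak2 rose by 1.27 ± 0.12 (edgeR FDR 0.000962) and Ifngr2, a chain of the interferon gamma receptor, by 1.15 ± 0.11 (edgeR FDR 0.00114). Il10rb, a receptor chain shared by interferon lambda and IL-10, fell by 0.77 (edgeR FDR 0.0176).

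Among the targets, 29 interferon-stimulated genes were tested, but Ifit1, Ifit3, Oas2 and Gbp2 reached the filter only through the HOXA9 OFF libraries. Of the other 25, 8 were called higher in HOXA9 OFF and 1 lower, with a median log2 fold change of 0.63. Over all 12124 genes that reach the filter without HOXA9 OFF, 12.3% were called higher and the median was -0.02. With the 4 genes included, 12 of 29 were called higher (median 0.96). Ifit1 rose from 11 and 6 counts in control to 46 and 68 counts after HOXA9 inactivation, by 2.98 ± 0.53 on the log2 scale (edgeR FDR 0.00793). Ifit3 rose from 2 and 0 counts to 22 and 27 counts (edgeR FDR 0.0093). Both encode antiviral proteins that act on viral RNA or its translation. Rtp4 went the other way and fell by 1.61 (edgeR FDR 0.0335). Of 10 tested genes linked to IRF8 in myeloid cells, some of which it activates and some of which (Bcl2 and Asah1) it is known to repress, 7 were called higher, Asah1 among them, and 0 lower (median log2 fold change 0.94). Il18 reached the filter only through HOXA9 OFF, and without it 6 of 9 were called higher (median 0.83). Cybb, the catalytic subunit of the phagocyte oxidase, had 8 and 1 counts in control, 35 and 56 in CAF-1 OFF, and 1076 and 382 in HOXA9 OFF, a log2 fold change of 7.46 ± 0.66 (edgeR FDR 0.000893). Ctss rose by 5.68 ± 0.41 (edgeR FDR 0.000493). Of 5 tested genes of alternative macrophage activation, a state linked to IRF4, 3 were called higher and 0 lower (median log2 fold change 3.65). Clec10a reached the filter only through HOXA9 OFF and had to come out higher. Without it 2 of 4 were called higher (median 2.74), and Chi3l3 changed most of these 4 (7.65 ± 0.58, edgeR FDR 0.000561).

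In CAF-1 OFF against control, 0 genes of any of these lists were called. Only 0.0321% of all genes were called in this comparison, so that 0 calls say little about the lists. The median log2 fold changes were 0.11 for the partners, -0.03 for the upstream genes, 0.07 for the cofactors and brakes, -0.10 for the receptors and kinases, 0.38 for the interferon-stimulated genes, 0.16 for the genes linked to IRF8 and 2.21 for the alternative activation genes, beside -0.00436 over all genes. The interferon-stimulated genes were positive in 23 of 29. For CAF-1 OFF against HOXA9 OFF, the genes that reach the filter only through HOXA9 OFF had to come out lower and were left out, which put 12% of all genes as called lower. Of 25 interferon-stimulated genes 5 were called lower and 1 higher (Rtp4), of 9 genes linked to IRF8 6 were called lower and 1 higher (Nf1), and of 17 upstream genes 3 were called lower and 1 higher. The last was Ifih1, which encodes the double-stranded RNA sensor MDA5. Ifih1 was at 20.7 and 14.7 CPM in control, at 31.7 and 53.1 CPM in CAF-1 OFF, and at 15.6 and 15.9 CPM in HOXA9 OFF, so that both CAF-1 OFF libraries lay above the other 4 (log2 fold change 1.43 ± 0.28 against HOXA9 OFF, edgeR FDR 0.0109, and 1.25 ± 0.27 against control, edgeR FDR 0.213).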

How the data were processed

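Bulk RNA-seq was analysed in 6 libraries, 2 for each of 3 groups, with groups and replicate numbers from the sample titles. The authors prepared libraries with a directional kit, aligned reads to mm9 with STAR and counted them with HTSeq-count. The counts they deposited are unnormalized, with 1 value per gene symbol. The annotation and the strand setting of the counting are not given in the sources used here, so exonic overlaps are listed beside each gene. In each file 5 tally lines, 50.2% to 53.9% of all entries, were left out.

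Counts were fitted with edgeR 4.0.16 and limma 3.58.1 under R 4.3.3 (filterByExpr, TMM, quasi-likelihood F test, all 6 libraries, 1 mean per group), with Benjamini-Hochberg FDR over 12460 genes. SE came from the F statistic and CPM used TMM-scaled library sizes. Alternatives were DESeq2 1.42.0, other scalings, filters and cutoffs, the edgeR exact test, a fit to 4 libraries, a replicate block and leaving out each library. A crossed block, transcript lengths, lists without genes that reach the filter only in HOXA9 OFF, and marker sums without Mmp8 or Emr1 were added after seeing the data.

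The genes and all lists were chosen with earlier results of these data known. Named were all 8 members, Chaf1b, up to 2 increases and 2 decreases called per list, and the 5 nearest profiles of 2 members. Stat2, Ikbke, Ticam1, Irak4, Myd88, Tlr4, Gbp2, Il18, Bcl2, Asah1, genes overlapping a member and single cell type markers (Siglech, Ms4a1, Pax5, Cd79a, Cd79b, Cx3cr1, Cd14, Mmp8, Kit and Emr1) were named after their values were seen. Some listed genes are not reported here. Coordinates are GENCODE vM1 (NCBIM37). Intervals and floors of 3 counts cover counting error or the spread of these libraries only.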

Additional observations from a re-analysis of the deposited data

Results flagged for a closer look

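Reads that fell in no annotated gene were used in no comparison. They numbered 7.84 and 8.26 for each 100 gene-assigned reads in the HOXA9 OFF libraries, above the control libraries (6.87 and 7.15), while the CAF-1 OFF libraries had 5.95 and 7.30. Whether these reads touch the counts of the IRF genes was not tested.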

How the results depend on the processing

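Of 389 alternative values for the log2 fold changes of the 8 genes, 359 kept their direction and side of the threshold, 19 lost a call, 1 gained a call and 10 changed sign. The 10 were all of uncalled genes with 1 library left out. Leaving out each library gave ranges, for CAF-1 OFF against control, of -0.12 to 0.031 (Irf2), -0.047 to 0.19 (Irf3), -0.36 to 1.18 (Irf4), -0.20 to 0.42 (Irf7) and -0.091 to 0.17 (Irf9), of -0.18 to 0.050 for Irf3 in HOXA9 OFF against control, and of -0.49 to 0.052 for Irf1 in CAF-1 OFF against HOXA9 OFF. For CAF-1 OFF against control, the count of called IRF genes was 1 (Irf8) with no filter and 0 to 0 without each library. In HOXA9 OFF against control it was 3 to 4 without each library. In CAF-1 OFF against HOXA9 OFF it was 2 at a fold change of 2 and an FDR under 0.01, and 2 to 3 without each library. The Irf8 share of the summed level was 14.1% (control) and 42.3% (HOXA9 OFF) with transcript lengths, against 8.12% and 28.3%. At a mean CPM of at least 5, Irf7 was not tested. The cause of these shifts was not tested. Over all genes, CAF-1 OFF against control gave 4 calls, but 378 with no filter, 192 with DESeq2, 243 with the exact test and 9 in the 4-library fit. Depth limits Irf4 and Irf7 most, as their control counts were 6 to 24.

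Whether same-numbered libraries belong together was not stated in the labels, and the numbers were not used to pair them. The correlation of their deviations was -0.178 (CAF-1 OFF and control), 0.456 (HOXA9 OFF and control) and 0.0329 (CAF-1 OFF and HOXA9 OFF). With the replicate block, CAF-1 OFF against control gave 0 of the 8 genes and 2 of all genes. HOXA9 OFF against control gave 4 of the 8 and 2680 of all, and CAF-1 OFF against HOXA9 OFF gave 3 of the 8, without Irf7, and 2684 of all. A crossed block for CAF-1 OFF and control, chosen after seeing the data, called 0 of the 8 genes and 89 of all genes.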

Other observations

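Gm20388, annotated over the Irf8 locus on the same strand, had 0 counts in all 6 libraries. Gm17334, which shares 135 exonic bases with Irf1 on the other strand, had 0 to 3 counts per library.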
